A study of Mus musculus with 6 samples.

Results

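The genes described here encode integrin alpha and beta subunits of epithelia. They were chosen by gene symbol from a set of 10, namely Itgb1, Itgb4, Itgb5, Itgb6, Itgb8, Itgav, Itga1, Itga2, Itga3 and Itga6. Rows for 9 of the 10 were found among the 20896 transcripts of the read table, which lists 1 transcript per gene, and Itga6 was not analysed here. All 9 passed the filter on low reads. The set was put together with earlier results of these data known, among them the higher level of Itgb6 in the knockout clones, so the fold change of Itgb6 is given as a description of the values behind that choice and supports nothing further.

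Total RNA was sequenced from 3 clones labelled PKA dKO, double knockouts of protein kinase A made by CRISPR-Cas9, and from 3 control clones, with 1 library per clone. All 6 clones derive from mpkCCD, a mouse cell line of the kidney cortical collecting duct, and spent 4 days on permeable supports in medium holding 2% serum and supplements. All 6 then received the vasopressin analog dDAVP at 0.1 nM for 3 days in medium without serum or hormones. Which genes were edited is not named in the labels. Since every library had dDAVP, its own effect cannot be read from these data.

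Integrins are receptors that join the extracellular matrix to the actin or keratin cytoskeleton. Each is a pair of 1 alpha and 1 beta subunit, and the pair decides which ligand is bound. In epithelia, the beta 1 pairs with alpha 1 and alpha 2 bind collagens, alpha 3 beta 1 binds laminins, and beta 4, paired with alpha 6, anchors hemidesmosomes to laminin. The alpha V subunit pairs with beta 1, beta 3, beta 5, beta 6 or beta 8, and the pairs with beta 6 and beta 8 are known for releasing active TGF-beta from its latent complex.

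Promoter sequences are shown for the 2 members with the highest fold changes, Itgb6 and Itgb8, and for Itga1, the member with the lowest, because the groups did not overlap for these 3 genes. They are RefSeq sequences of GRCm38.p6, each covering 250 bases before and 50 bases after an annotated start, and 8 of the 9 members had an entry. For Itgb6 RefSeq lists 2 starts, and the deposited transcript begins 18 bases from the downstream one. The deposited Itgb8 transcript begins 526 bases from the RefSeq start, and that of Itga1 at it. Capitals mark matches to TGACG, on either strand, the core of the cyclic AMP response element, which is bound by CREB, a transcription factor that PKA phosphorylates.
Itgb6, upstream start, chr2:60722554-60722853, minus strand: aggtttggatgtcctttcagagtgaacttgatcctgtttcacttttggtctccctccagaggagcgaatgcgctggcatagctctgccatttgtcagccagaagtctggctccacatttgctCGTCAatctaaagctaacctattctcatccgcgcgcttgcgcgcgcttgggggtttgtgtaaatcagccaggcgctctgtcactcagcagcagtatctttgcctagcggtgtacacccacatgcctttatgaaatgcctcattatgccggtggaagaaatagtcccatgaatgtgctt
Itgb6, downstream start, chr2:60673644-60673943, minus strand: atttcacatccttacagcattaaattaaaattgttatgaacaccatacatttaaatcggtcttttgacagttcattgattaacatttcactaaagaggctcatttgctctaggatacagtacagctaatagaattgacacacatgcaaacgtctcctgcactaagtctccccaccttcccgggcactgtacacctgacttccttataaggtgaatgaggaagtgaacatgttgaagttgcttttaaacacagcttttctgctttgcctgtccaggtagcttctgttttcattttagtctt
Itgb8, chr12:119238227-119238526, minus strand: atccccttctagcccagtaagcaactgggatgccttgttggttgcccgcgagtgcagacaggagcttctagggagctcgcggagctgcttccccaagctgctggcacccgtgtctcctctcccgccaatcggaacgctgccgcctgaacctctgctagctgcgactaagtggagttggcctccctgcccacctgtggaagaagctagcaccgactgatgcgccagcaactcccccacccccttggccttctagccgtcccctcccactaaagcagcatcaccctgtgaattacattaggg
Itga1, chr13:115101915-115102214, minus strand: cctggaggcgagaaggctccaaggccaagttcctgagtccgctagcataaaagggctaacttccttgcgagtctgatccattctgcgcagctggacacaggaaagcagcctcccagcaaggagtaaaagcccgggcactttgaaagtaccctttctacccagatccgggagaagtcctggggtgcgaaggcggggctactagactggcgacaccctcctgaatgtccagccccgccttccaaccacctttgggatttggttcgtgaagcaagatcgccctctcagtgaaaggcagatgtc

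The upstream Itgb6 sequence held 1 match to TGACG, whose first base lies 128 bases before the start, and the other 3 sequences held none. Over the 10 promoter sequences of the members, 2 held TGACG on either strand, the second being that of Itgb1, against 20.8% of all 32851 promoter sequences. The full element TGACGTCA, which contains TGACG, was in 0 of the 10 and in 1.79% of all. The AP-1 element TGACTCA was in 0 of the 10 and in 5.2% of all. These are matches of letters in a fixed window, and binding was not measured.

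The libraries held 30541578 to 38760162 reads on listed transcripts in dKO clones and 28596444 to 42515838 in control clones. Prkaca, which encodes the PKA catalytic subunit alpha and was taken here as an edited gene, stood at 6.65, 8.49 and 7.44 CPM (read counts scaled by library size with TMM factors) in dKO clones 1, 2 and 3, against 133, 75.8 and 90.6 CPM in control clones 1, 2 and 3. Clone 3 of the dKO group and clone 1 of the control group stood apart from the other 4 libraries, with 2363 and 2443 transcripts without a read against 863 to 1045. Results on the members are therefore also given within the other 4 libraries. These 4 were picked from the same data. In that fit 518 transcripts passed, or 3.0%, against 28 with all 6 libraries, so passing there is a description. Of 11 listed principal-cell markers, 9 were above 1 CPM in every library, and all 8 listed markers of epithelia were. In 2 of these 8 every dKO clone was below every control clone, beside 5.67% of all transcripts. With limma 0 of the 8 passed, and their median log2 fold change was -0.02. Markers of fibroblasts summed to 2.05 to 6.84 CPM in dKO clones and 1.88 to 8.97 CPM in control clones, and those of endothelium to 0.982 to 5.29 CPM and 1.66 to 5.50 CPM. Principal-cell markers summed to 1284 to 1379 CPM in dKO clones and 1200.0 to 1720 CPM in control clones. Beside 10.8% of all transcripts, 4 of the 11 markers did not overlap between the groups. Of these, Aqp2, the vasopressin-regulated water channel gene, was called lower, with 3.39, 2.72 and 1.82 CPM in dKO clones 1, 2 and 3, against 399, 140 and 157 CPM in control clones 1, 2 and 3 (log2 fold change -6.30; limma adjusted p = 1.59e-05). Avpr2 and Aqp4 lay below the control clones and Tfcp2l1 above them, none past the threshold with limma. DESeq2 called 2 of the 11 lower, beside 1.25% of all transcripts. Intercalated-cell markers summed to 18.5 to 45.4 CPM in dKO clones and 25.6 to 44.6 CPM in control clones. Leukocyte markers summed to 36.2 to 69.1 CPM in dKO clones and 37.7 to 62.5 CPM in control clones, most of it Csf1r.

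Per length, Itgb1 was the most abundant subunit mRNA, with a mean over the 6 libraries of 113 FPKM (fragments scaled by transcript length and library size, as deposited). The alpha 3 subunit gene Itga3 followed with 44.3 FPKM, then Itgb5 with 41.2, Itgb6 with 19.6, Itgav with 10.6 and Itgb4 with 8.39 FPKM. The collagen-binding subunit genes were lower, at 2.76 FPKM for Itga1 and 1.42 FPKM for Itga2, and Itgb8 was lowest at 0.490 FPKM. Every neighbouring pair in this order held in 6 of 6 libraries, except Itga3 over Itgb5, which held in 4 of 6. The Itga1 and Itga2 models are 5925 and 4153 bases long, against 10967 and 7108 bases in GENCODE M21. What this does to their FPKM was not tested. FPKM was used only to compare genes within a library, because the deposited FPKM columns sum to 188882 to 283843 in dKO libraries and 201365 to 284998 in control libraries. Comparisons between clones use CPM.

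**Figure D1:**
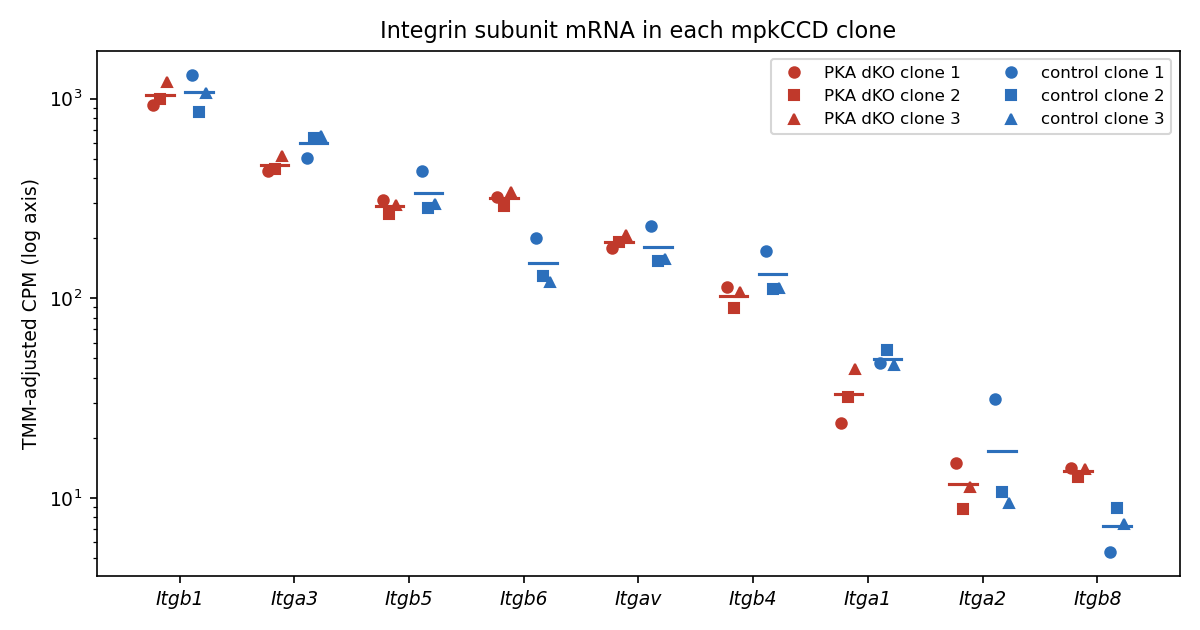
TMM-adjusted CPM (log axis) of the 9 integrin subunit genes in each clone, red for the 3 PKA dKO clones and blue for the 3 control clones, with a horizontal bar at each group mean. The groups are separate for Itgb6 and Itgb8, where dKO clones are higher, and for Itga1, where they are lower; control clone 1 is the highest of the 6 libraries for Itgb1, Itgb5, Itgav, Itgb4 and Itga2.

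Of the 9 members, 1 passed the test across all transcripts (limma-trend, Benjamini-Hochberg adjusted p under 0.05), beside 28 of the 16683 transcripts tested, or 0.168%. It was Itgb6, which was higher in dKO clones, as were 0.0539% of all transcripts at that threshold, and was part of the choice of this set, so nothing is read from the count. An unadjusted p under 0.05 was found for 4 members, Itgb6, Itgb8, Itga1 and Itga3, beside 6.24% of all transcripts tested. The groups did not overlap for 3 members, beside 10.8% of all transcripts. In 2 of these every dKO clone was above every control clone (5.15% of all), and in 1 every dKO clone was below (5.67% of all). Itgb6 is among the 4 and among the 3, and the set was chosen with earlier results known. Nothing is therefore read from these counts either. The fold change was above 0 for 3 members and below 0 for 6, with a median log2 fold change of -0.20, against -0.0015 over all transcripts tested.

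Itgb6 encodes the beta 6 subunit, which pairs only with alpha V and is largely restricted to epithelia. The gene (ENSMUSG00000026971.15; transcript ENSMUST00000059888.14; GRCm38 chr2:60598292-60673711, minus strand, protein-coding, 15 exons) had 322, 291 and 340 CPM in dKO clones 1, 2 and 3, against 201, 129 and 121 CPM in control clones 1, 2 and 3. Every dKO clone was above every control clone, and the lowest dKO value was 1.45 times the highest control value, that of control clone 1.

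Mean Itgb6 was 318 ± 24.9 CPM in dKO clones and 150 ± 44.2 CPM in control clones (SD, n = 3 each), 2.17-fold higher in dKO clones (95% interval 1.63 to 2.87). On the log2 scale this was 1.11 (SE 0.18), with a limma adjusted p = 0.0497. By p it was the last of the 28 genes past the threshold. The call was lost in 9 of 19 alternative settings, among them edgeR's quasi-likelihood test (adjusted p = 0.0661) and 5 of the 6 fits that left out 1 library, while the log2 fold change stayed between 0.98 and 1.35 in all 19. Without control clone 1 the adjusted p was 0.000134, and without dKO clone 1, 2 or 3 it was 0.133, 0.114 and 0.0909; without control clone 2 or 3 it was 0.0856 and 0.0820.

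Within the 4 libraries other than dKO clone 3 and control clone 1, the log2 fold change of Itgb6 was 1.30 (limma adjusted p = 7.71e-08), beside 3.0% of transcripts called in that fit. The libraries that stood apart, dKO clone 3 minus control clone 1, differed by 0.76 on the same scale. The direction was thus the same in both. With this split as a term of the model, Itgb6 was the 1 member called (adjusted p = 0.00655), beside 0.426% of all transcripts. The authors' deposited table gives Itgb6 1.07 on the log2 scale and a false discovery rate of 9.97e-10. It is 16th by p there among 10190 transcripts, of which 3.47% have a false discovery rate under 0.05. All of these fits use the same clones and the Itgb6 values behind the choice of the set, so nothing further is read from them.

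**Figure D2:**
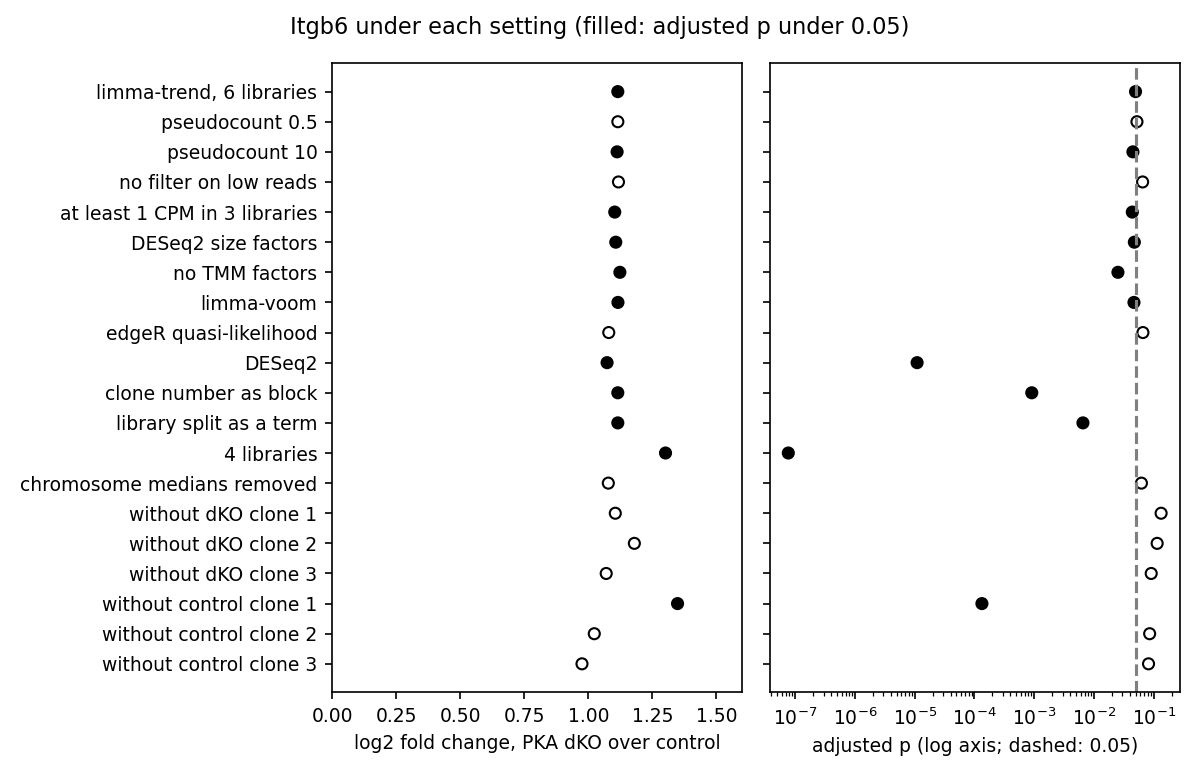
Log2 fold change of Itgb6 in PKA dKO over control clones (left) and its adjusted p on a log axis (right) under the main setting, at the top, and 19 alternatives; filled points have an adjusted p under 0.05 (dashed line). The fold change stays between 0.98 and 1.35 while the adjusted p lies on either side of the line.

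Itgb8, whose product also pairs with alpha V and holds latent TGF-beta, was the other member with all dKO clones above all control clones. It had 14.1, 12.7 and 13.9 CPM in dKO clones 1, 2 and 3, against 5.37, 8.87 and 7.41 CPM in control clones 1, 2 and 3. The mean was 13.6 ± 0.75 CPM in dKO clones and 7.22 ± 1.76 CPM in control clones (n = 3 each), a log2 fold change of 0.94 (SE 0.22) that did not pass (limma adjusted p = 0.205).

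The interval of the Itgb8 ratio ran from 1.37 to 2.68 around 1.91. The gene (ENSMUSG00000025321.14; chr12:119158022-119238802, minus strand, 14 exons) rested on 194 to 568 reads per library. Its adjusted p was 0.0214 with DESeq2, in which 1.25% of transcripts passed, and its false discovery rate was 0.0285 in the authors' deposited table. With the clone number as a block, in which 1.17% of transcripts passed, its limma adjusted p was 0.0484. The difference was 0.73 within the 4 libraries (limma adjusted p = 0.0620) and 1.36 for dKO clone 3 minus control clone 1.

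Itgav, the alpha subunit gene that Itgb5, Itgb6 and Itgb8 need, overlapped between the groups. It had 178, 191 and 208 CPM in dKO clones 1, 2 and 3, against 230, 154 and 157 CPM in control clones 1, 2 and 3. Control clone 1 was the highest and the other 2 control clones the lowest of the 6. On the log2 scale the groups differed by 0.11, between -0.25 and 0.48 at 95% confidence (limma adjusted p = 1.00). The gene (ENSMUSG00000027087.11; chr2:83724397-83806916, plus strand, 30 exons) lies on the same chromosome as Itgb6.

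Itgb5, whose product forms the vitronectin receptor alpha V beta 5, had 311, 266 and 294 CPM in dKO clones 1, 2 and 3, against 434, 284 and 297 CPM in control clones 1, 2 and 3. On the log2 scale the difference of -0.20 (95% interval -0.57 to 0.18) missed the threshold, and it was -0.0065 within the 4 libraries. The value of control clone 1 was the highest, and the other 5 libraries lay between 266 and 311 CPM.

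Set against its partner within each library, Itgb6 had 2.65, 2.23 and 2.40 times the FPKM of Itgav in dKO clones 1, 2 and 3, against 1.28, 1.23 and 1.12 times in control clones 1, 2 and 3. In this ratio control clone 1 lay beside the other control clones, and the groups did not overlap. Nor did they for Itgb5 over Itgav, at 4.01, 3.20 and 3.23 in dKO clones and 4.33, 4.24 and 4.31 in control clones 1, 2 and 3. In CPM Itgb5 itself overlapped between the groups. Within the 4 libraries Itgb5 differed by -0.0065 and Itgav by 0.25 on the log2 scale. Itgb8 over Itgav was also separate, at 0.0664, 0.0558 and 0.0559 in dKO clones and 0.0195, 0.0482 and 0.0393 in control clones. The ratio of Itgb1 to Itgav overlapped between the groups. The ratio of Itgb6 to Itgb5 was 0.661, 0.699 and 0.741 in dKO clones and 0.296, 0.290 and 0.260 in control clones 1, 2 and 3. The ratios with Itgb6 use the values behind the choice of the set, and all of them are given without a test. Ratios over Itgav share its values, and how often ratios of other genes separate was not tested. In CPM 10.8% of all transcripts did not overlap.

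Among the 5 beta subunit mRNAs that can pair with alpha V, Itgb6 made up 15.1 ± 0.89% of the summed FPKM in dKO clones and 7.28 ± 0.93% in control clones (SD, n = 3 each). Itgb1, which also pairs with many other alpha subunits, took 62.7 ± 3.42% and 66.6 ± 2.56%. With Itgb1 left out, Itgb6 made up 39.3%, 40.6% and 42.1% in dKO clones 1, 2 and 3, against 22.7%, 22.2% and 20.4% in control clones 1, 2 and 3. Itgb5 then held 58.1 ± 1.34% in dKO clones and 77.2 ± 1.10% in control clones. These shares use the Itgb6 values behind the choice of the set and are given without a test; how the proteins pair was not measured.

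**Figure D3:**
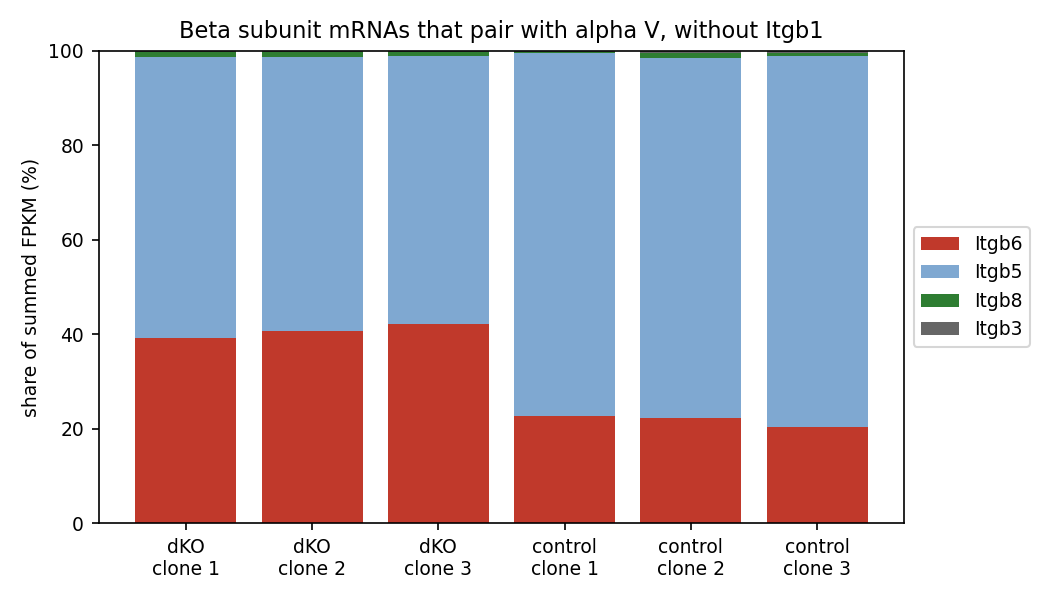
Share (%) of the summed FPKM of Itgb3, Itgb5, Itgb6 and Itgb8 that each took, 1 stacked bar per library with the 3 PKA dKO clones on the left and the 3 control clones on the right. The Itgb6 share lies between 39.3% and 42.1% in dKO clones and between 20.4% and 22.7% in control clones; Itgb3 and Itgb8 form the thin band at the top.

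Itgb1, the common partner of alpha 1, alpha 2 and alpha 3, had 928, 997 and 1211 CPM in dKO clones 1, 2 and 3, against 1321, 857 and 1071 CPM in control clones 1, 2 and 3. The groups overlapped, with a log2 difference of -0.04 (95% interval -0.47 to 0.40). Its sign turned in 3 of 19 settings, so no direction is given. The gene (ENSMUSG00000025809.15; chr8:128685654-128733200, plus strand, 16 exons) had 26171 to 47742 reads per library.

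Itga3, which pairs with beta 1 as a laminin receptor, had 436, 443 and 517 CPM in dKO clones 1, 2 and 3, against 506, 636 and 652 CPM in control clones 1, 2 and 3. Clone 3 of the dKO group lay just above control clone 1, and these are the libraries that stood apart. The groups differed by -0.36 on the log2 scale (SE 0.15; 95% interval -0.70 to -0.02; limma adjusted p = 0.744). Within the other 4 libraries it was -0.54 and passed (limma adjusted p = 0.0279), beside 3.0% of all transcripts. For dKO clone 3 minus control clone 1 the difference was 0.03. The gene is ENSMUSG00000001507.16 at chr11:95044474-95076714, minus strand, with 26 exons.

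Itga1, a collagen receptor subunit gene, was the member with the lowest fold change. It had 23.6, 31.96 and 44.1 CPM in dKO clones 1, 2 and 3, against 47.5, 55.0 and 46.5 CPM in control clones 1, 2 and 3. All dKO values lay below all control values, but dKO clone 3 came close to control clone 3. The groups differed by -0.62 on the log2 scale (SE 0.20; limma adjusted p = 0.474).

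Within the 4 libraries the log2 fold change of Itga1 was -0.87 (limma adjusted p = 0.000937), beside 3.0% of all transcripts called. For dKO clone 3 minus control clone 1 the difference was -0.11. The authors' deposited table gives it -0.62 with a false discovery rate of 0.0486. Among the members it was the exception in spread, with a log2 SD of 0.45 among dKO clones and 0.13 among control clones. In the other 8 members the SD was lower among dKO clones, beside 60.0% of all transcripts tested.

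Itga2, the other collagen receptor subunit gene, had 14.96, 8.77 and 11.3 CPM in dKO clones 1, 2 and 3, against 31.5, 10.7 and 9.46 CPM in control clones 1, 2 and 3. Only control clone 1 was far from the rest. The log2 difference of -0.37 (SE 0.39) was not past the threshold, and it was 0.19 within the 4 libraries. Itga1 and Itga2 are neighbours on chromosome 13 (chr13:114958079-115101964 and chr13:114835916-114932041, both on the minus strand). Their deposited transcript models, 5925 and 4153 bases long, are shorter than the same transcripts in GENCODE M21, at 10967 and 7108 bases, so reads in the added parts were outside the models.

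Itgb4, which joins laminin to keratin filaments in hemidesmosomes as a pair with alpha 6, had 114, 89.1 and 107 CPM in dKO clones 1, 2 and 3, against 173, 112 and 113 CPM in control clones 1, 2 and 3. Control clone 1 was again the highest library. The groups differed by -0.33 on the log2 scale (SE 0.18; limma adjusted p = 0.931), and by -0.15 within the 4 libraries. Its exons (ENSMUSG00000020758.15, chr11:115974725-116008411, plus strand, 40 exons) overlap the lincRNA gene B230344G16Rik on the opposite strand in GENCODE M21, by at most 130 bases in any pair of exons. The exons of Itga1 overlap the protein-coding model Gm49395 on the same strand, by at most 451 bases in any pair of exons. These were the 2 genes found with exonic overlap among the 9 members.

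Control clone 1 was the highest of the 6 libraries for 5 of the 9 members, beside 26.0% of all transcripts tested. Over the 6 libraries Itgb4, Itgb5 and Itga2 had Pearson correlations of 0.94 to 0.98 with each other, and each of the 3 was highest in control clone 1. Itgb6 had a correlation of 0.71 with Itgb8, 0.61 with Itgav, -0.69 with Itga1 and -0.89 with Itga3. These describe 6 libraries of 2 groups, and the points share the group difference and the 2 libraries that stood apart.

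**Figure D4:**
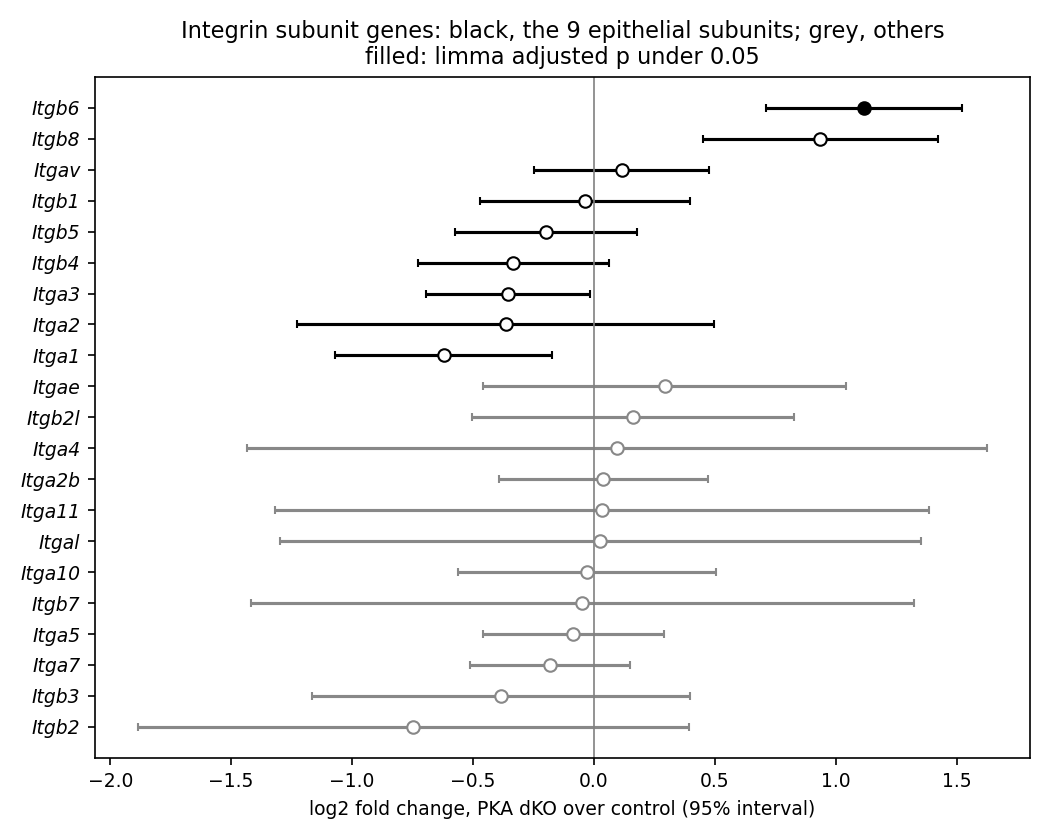
Log2 fold changes in PKA dKO over control clones with 95% intervals for the 9 epithelial integrin subunit genes (black) and the 12 other integrin subunit genes with a mean of at least 1 CPM (grey); filled points passed the test. Only Itgb6 is filled, Itgb8 and Itga1 lie farthest from 0 after it among the 9, and all 12 grey intervals include 0.

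None of the 17 other integrin subunit genes passed with limma, edgeR's quasi-likelihood test or DESeq2. An unadjusted p under 0.05 was found for 0 of them, beside 6.24% of all transcripts. They were low, and 12 had a mean of at least 1 CPM. Itga7, a laminin-binding subunit gene best known from muscle, was highest with 37.1 ± 4.69 CPM in dKO clones and 42.0 ± 4.83 CPM in control clones. Itga5, the fibronectin receptor subunit gene, had 12.6 ± 1.23 CPM and 13.3 ± 0.42 CPM. The platelet subunit gene Itga2b had 12.9 ± 0.54 CPM and 12.8 ± 2.64 CPM in dKO and control clones. Itgb3, a further partner of alpha V, had 2.34 ± 0.48 CPM and 3.11 ± 0.92 CPM. The leukocyte subunit gene Itgb2 had 0.751 ± 0.18 CPM in dKO clones and 1.34 ± 0.55 CPM in control clones. It was the only one of the 17 whose groups did not overlap, beside 10.8% of all transcripts.

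The list of ligands in basement membrane had 20 genes with a row in the table, each tested singly in the fit over all transcripts. With limma 0 passed and 4 had an unadjusted p under 0.05, all higher in dKO clones, beside 6.24% of all transcripts. The quasi-likelihood test called 0 and DESeq2 called 1 higher, beside 1.25% of all transcripts. The list's median log2 fold change was 0.02. Lamc1, the gamma 1 chain of most laminins, had 296 ± 3.53 CPM in dKO clones and 210 ± 44.4 CPM in control clones (log2 fold change 0.51; limma adjusted p = 0.405). The type IV collagen gene Col4a3 had 171 ± 53.5 CPM in dKO clones and 105 ± 1.09 CPM in control clones (log2 fold change 0.67; limma adjusted p = 0.329).

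Within the 4 libraries 5 genes of the basement membrane list passed, all higher in dKO clones, beside 3.0% of all transcripts. On the log2 scale Lamc1 stood at 0.68 there and at 0.19 for dKO clone 3 minus control clone 1, so its difference was mostly in the 4 libraries. For Col4a3 the order was the opposite, with 0.44 within the 4 libraries and 1.14 for dKO clone 3 minus control clone 1. The most abundant chains, Lamb1 and Lama5, had log2 fold changes of 0.11 and -0.17.

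Of the 16 genes listed for fibronectin, collagens and other integrin ligands outside basement membrane, 0 passed with limma or the quasi-likelihood test. DESeq2 called 1 higher, beside 1.25% of all transcripts, and 1 had an unadjusted p below 0.05, beside 6.24% of all. Cyr61 (Ccn1), a matrix protein bound by alpha V integrins, had 256 ± 42.7 CPM in dKO clones and 154 ± 43.3 CPM in control clones (log2 fold change 0.75; limma adjusted p = 0.249), with no overlap. Within the 4 libraries 2 genes of this list passed, both higher in dKO clones, beside 3.0% of all transcripts. They were Cyr61 (0.85; limma adjusted p = 0.00011) and the osteopontin gene Spp1 (2.20; 2.48e-05). For dKO clone 3 minus control clone 1 Cyr61 stood at 0.58 and Spp1 at -2.76, so Spp1 had opposite signs in these parts of the libraries. The Cyr61 relative Ctgf (Ccn2) had 193 ± 48.9 CPM and 239 ± 10.7 CPM (-0.34). Fn1, which encodes fibronectin, a ligand of alpha V beta 6, had 227, 160 and 191 CPM in dKO clones 1, 2 and 3, against 494, 120 and 169 CPM in control clones 1, 2 and 3. On the log2 scale Fn1 differed by -0.18 in all libraries and by 0.42 within the 4 libraries, so no direction is given. Thbs1 and Mfge8 had log2 fold changes of -0.02 and 0.36, neither past the threshold.

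The latent TGF-beta list covers the TGF-beta genes, their latent binding proteins, receptors and SMADs. Alpha V beta 6 and alpha V beta 8 bind an RGD sequence in the latent forms of TGF-beta 1 and TGF-beta 3, which that of TGF-beta 2 lacks. Of the list's 14 genes with a row, 0 passed with limma, the quasi-likelihood test or DESeq2. An unadjusted p under 0.05 was found for 2, both higher in dKO clones, beside 6.24% of all transcripts. Tgfb1 had 7.28 ± 2.93 CPM in dKO clones and 8.52 ± 3.52 CPM in control clones (log2 fold change -0.21; limma adjusted p = 1.00), and the groups overlapped. Tgfb2 had 12.8, 14.2 and 14.7 CPM in dKO clones 1, 2 and 3, against 12.1, 5.6 and 5.41 CPM in control clones 1, 2 and 3 (log2 fold change 0.95; limma adjusted p = 0.419). All dKO clones were above all control clones, though dKO clone 1 lay close to control clone 1.

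Tgfb3 had 29.6, 25.7 and 15.3 CPM in dKO clones 1, 2 and 3, against 16.9, 14.8 and 8.17 CPM in control clones 1, 2 and 3 (0.83; 0.570), and the groups overlapped. Within the 4 libraries Tgfb2 and Tgfb3 passed, at 1.29 and 1.33 (limma adjusted p = 0.000535 and 0.000121), beside 3.0% of all transcripts. For dKO clone 3 minus control clone 1 they stood at 0.28 and -0.15. The latent binding protein gene Ltbp4 differed by -0.57 on the log2 scale, the receptor genes Tgfbr1 and Tgfbr2 by 0.01 and -0.02, none past the threshold.

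Among 29 genes of adaptors and kinases that connect integrin tails to actin, 0 passed with limma or the quasi-likelihood test. DESeq2 called 2 higher, beside 1.25% of all transcripts. An unadjusted p below 0.05 was found for 6, with 4 higher and 2 lower, beside 6.24% of all transcripts. The list's median log2 fold change was -0.01. Tln2, a talin that links beta tails to actin, had 210 ± 27.9 CPM in dKO clones and 143 ± 16.9 CPM in control clones (0.55; limma adjusted p = 0.269). Fyn, a Src-family kinase, had 20.3 ± 2.93 CPM and 12.6 ± 0.76 CPM (0.67; 0.249). Ptk2b, the kinase Pyk2, had 20.8 ± 7.65 CPM in dKO clones and 41.4 ± 17.3 CPM in control clones (-0.98; 0.438). Within the 4 libraries 4 genes of this list passed, all higher in dKO clones, beside 3.0% of all transcripts. They were Tln2 (0.58), the tensin gene Tns1 (0.70), the vinculin gene Vcl (0.63) and the kindlin gene Fermt1 (0.68). For dKO clone 3 minus control clone 1 these stood at 0.52, 0.27, -0.45 and -1.15, so Vcl and Fermt1 had opposite signs there. The Ptk2b difference was -0.36 within the 4 libraries and -2.22 for dKO clone 3 minus control clone 1. The filamin gene Flna, the most abundant of the list, had a log2 fold change of 0.21.

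The hemidesmosome list had 6 genes, of which 0 passed with limma or the quasi-likelihood test. DESeq2 called 1 lower, beside 1.25% of all transcripts. The same gene alone had an unadjusted p below 0.05, beside 6.24% of all transcripts. It was Plec, which encodes plectin, the link from beta 4 to keratins, with 376, 332 and 416 CPM in dKO clones 1, 2 and 3, against 639, 510 and 473 CPM in control clones 1, 2 and 3. The groups did not overlap (log2 fold change -0.52; limma adjusted p = 0.412). Dst had a log2 fold change of -0.24. Col17a1, the collagen of skin hemidesmosomes, was low at 3.52 ± 0.90 CPM in dKO clones and 3.94 ± 0.87 CPM in control clones.

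**Figure D5:**
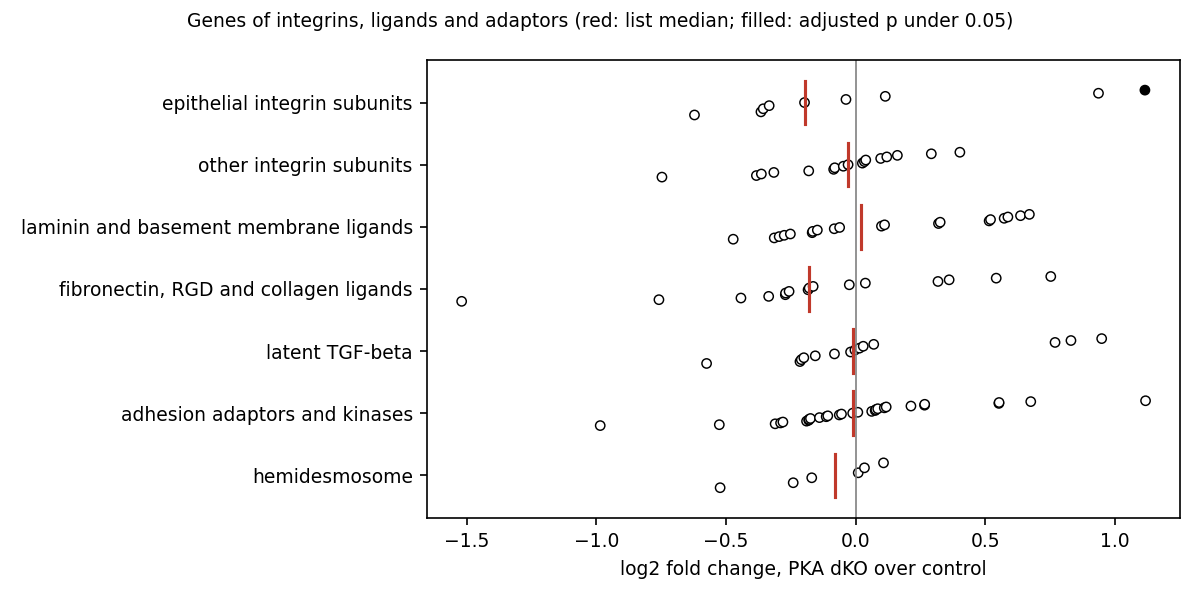
Log2 fold changes in PKA dKO over control clones of the tested genes of each list, 1 point per gene, with the list median in red and genes past the threshold filled. Itgb6 is the 1 filled point, and the list medians lie between -0.20 and 0.02.

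Other readouts that moved with Itgb6 were looked for by likeness over the 6 libraries among 11739 other genes with a mean of at least 1 CPM. The 5 with the highest Pearson correlation were Sfxn2 (0.997), Klhl8 (0.995), Jun (0.995), Odf2 (0.989) and Ccdc68 (0.988), and the 2 with the lowest were Rpph1 (-0.994) and Ipcef1 (-0.992). With 6 libraries in 2 groups and this many genes, values this high are a description of the libraries. Jun, which encodes an AP-1 subunit, had 138, 123 and 136 CPM in dKO clones 1, 2 and 3, against 107, 87.6 and 82.6 CPM in control clones 1, 2 and 3 (log2 fold change 0.53; limma adjusted p = 0.249). With limma 1 of the 6 proximal tubule markers was called higher, beside 0.0539% of all transcripts. In 2 of the 6 every dKO clone was above every control clone, beside 5.15% of all transcripts. Among the 6 markers the fold change was above 0 for 2 and below 0 for 4, with a median log2 fold change of -0.09. Their sum was 699.6 to 866 CPM in dKO clones and 311 to 408 CPM in control clones, nearly all of it Lrp2, which was called higher with 786 ± 87.5 CPM in dKO clones and 360.4 ± 53.5 CPM in control clones (log2 fold change 1.13; limma adjusted p = 0.0252), while the proximal marker Slc34a1 stayed between 0.277 and 1.83 CPM in all 6 libraries. The part of Lrp2-expressing cells in the Itgb6 difference was not tested.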

How the data were processed

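RNA from 3 PKA dKO and 3 control clones was depleted of ribosomal RNA and made into stranded libraries, per the labels' protocols. Tools listed in the submitters' processing notes, with no role, are HOMER 4.8, STAR 2.5.2a, SAMtools and edgeR, and the build is GRCm38.p5. The handling of strand and of multiply mapped reads is not stated there or in the labels. As to the values, the read columns are a signal: the authors scaled each library to a common total, and dividing by 1 step per library gave whole reads for 100.0% of values (tolerance 0.01 scaled reads). FPKM values are the authors' own, per the file headers. A further table, deposited by the authors, compares the groups by log2 fold change and log2 CPM with p-values and false discovery rates.

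The test was limma-trend, run with limma 3.58.1 in R 4.3.3, on log2(scaled reads divided by TMM factors + 1 scaled read, about 0.055 CPM), which understates changes of low genes, for 16683 transcripts kept by filterByExpr (10 reads, total 15), with group as the only term. TMM factors were 0.909 to 1.07 (edgeR 4.0.16). DESeq2 1.42.0 and edgeR's quasi-likelihood test on recovered reads were alternatives, and the quasi-likelihood test called 28 transcripts. The fit was tested on simulated data. It recovered 7 of 67 changes of 1.5-fold, 40 of 67 of 2-fold and 57 of 66 of 4-fold. Of its 110 calls 6 were false. Genes were drawn independently there, without a difference shared across a library such as that of the 2 that stood apart. Recovery and false calls may thus differ in the 6 libraries here. A gene that did not pass here may therefore still differ, above all where the change is below 2-fold. With 1 library per clone, clonal, culture and library differences cannot be told apart from the knockout. Members and gene lists were chosen with earlier results of these data known. Genes named outside the members follow a rule: each list's 3 lowest p and 2 highest mean CPM, the other subunits above 1 CPM, Prkaca and Aqp2, and the 5 highest and 2 lowest correlations with Itgb6. Of these, 2 genes are not reported here. Tgfb1, Spp1, Tns1, Vcl, Fermt1, Avpr2, Aqp4, Tfcp2l1, Lrp2, Slc34a1, Csf1r and the overlapping gene models were named after their values were seen. M21 gave gene identifiers and exon numbers; 6 of 9 member models had the same start and end.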

Additional observations from a re-analysis of the deposited data

How the results depend on the processing

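With 3 clones per group the number of genes past the threshold depended on the fit. It was 28 with limma-trend, 17 without TMM factors, 209 with DESeq2, 71 with the library split as a term, 518 within the 4 libraries and 11 to 146 when each clone was left out in turn; the cause was not tested. Of the 9 integrin genes, 1 passed in the main fit. The number was 0 with a pseudocount of 0.5, without a filter on low reads, with edgeR's quasi-likelihood test and with chromosome medians removed, where 3 or 4 had an unadjusted p under 0.05. It was 2 with DESeq2, 3 within the 4 libraries, and 0 to 1 when each clone was left out. The adjusted p of Itgb6 in the 4 settings with 0 was 0.0525, 0.0653, 0.0661 and 0.0624, and its log2 fold change was positive in all 19 alternatives. The median log2 fold change of the 9 was -0.20, and -0.31 to 0.12 when each clone was left out, with 0.12 without control clone 1. The sign of Itgb1 turned within the 4 libraries (0.014; -0.20 to 0.12 when each clone was left out), and so did that of Itga2 (0.19; -0.68 to 0.19). The Itgb6 share was 7.87 percentage points higher in dKO clones, and 18.9 points with Itgb1 left out, a smaller denominator. The order of levels per length was the same for all 9 with TPM. The fewest reads were those of Itgb8 and Itga2, with 194 to 568 and 277 to 1137 per library.

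With the clone number as a replicate block, 196 genes and 2 integrin genes, Itgb6 and Itgb8, passed. The labels number the clones 1 to 3 in each group without saying that a number marks anything shared, and deviations of same-numbered clones correlated at -0.36, 0.64 and -0.34, so the numbers were not taken to pair the clones. Not every dKO clone correlated best with its own number: clones 1 and 2 did so with control clone 2, and clone 3 with control clone 1.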
